A study of Chlamydomonas reinhardtii with 9 samples.

Results

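The subject is a set of 150 nuclear genes in Chlamydomonas reinhardtii, a unicellular green alga, whose messenger RNA was lower in the mutant crskip-1 than in wild type and close to wild type in the mutant crpaf1-1. Members were found by a rule on CPM (a gene's count divided by the library's total count and multiplied by 1000000): a mean of 2 CPM or more over the 9 libraries, a crskip-1 mean at most 0.55 times the wild-type mean, and a crpaf1-1 mean between 0.8 and 1.25 times the wild-type mean. Of 14621 genes listed, 14540 were nuclear and 12279 of those reached 2 CPM. Among these 12279 genes, 868 lay at or under 0.55 in crskip-1, of which 649 were under 0.8 in crpaf1-1 as well, 69 were above 1.25, and the other 150 are the members.

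The study sequenced polyadenylated RNA of wild type, crpaf1-1 and crskip-1, with 3 libraries each, to see which transcripts depend on either mutated factor. All cultures carry the strain name CC5325 in the labels and grew in liquid TAP, a medium with acetate, in cycles of 14 h light and 10 h dark at 22 °C until late G1, the growth phase before division. Each mutant is a single line, whose lesion and complementation are not described in the labels, and no group shares a further allele or agent by the labels. Nothing there says that replicates were separate cultures, so the spread between them may be technical.

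SKIP belongs to the spliceosome, the machine that removes introns from pre-messenger RNA, and in plants and animals it also takes part in transcription. PAF1 gives its name to a complex that accompanies the transcribing polymerase and helps place histone marks along transcribed genes. In flowering plants SKIP has been described as a partner of that complex, so genes that respond to the loss of SKIP and not of PAF1 are of interest beside those that respond to both. The deposited tables carry gene IDs and exon coordinates with no gene names, and the reference table used here gives locus tags only, for 142 of the 150 members. Products and sequences are therefore not described, and genes are called by ID.

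Total counts were 14006299 to 16812251 in wild type, 16876166 to 19725439 in crpaf1-1 and 13907142 to 16122105 in crskip-1, so 1 CPM stood for 14 to 20 counts. Replicate 1 of each group came from sequencing lane 3 and replicates 2 and 3 from lane 2, per the file headers. On the CPM scale the median of all 12279 genes was itself below wild type in crskip-1 (log2 ratio -0.112) and above it in crpaf1-1 (log2 ratio 0.09). With TMM scaling, which sets the bulk of genes level, these medians were 0.0121 and 0.00719, and 87 of the 150 members still met the rule. The other 63 lie near its limits, 47 of them over 0.55 in crskip-1 and 20 under 0.8 in crpaf1-1 on that scale.

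Together the members held 0.415, 0.335 and 0.363% of the counts of the wild-type libraries and 0.38, 0.343 and 0.356% of those of the crpaf1-1 libraries. In the crskip-1 libraries they held 0.162, 0.163 and 0.152%. The choice of members fixes this pattern, and the values describe its size. The median member stood at 0.46 of wild type in crskip-1 (lowest 0.0912, highest 0.549) and at 0.952 in crpaf1-1 (lowest 0.803, highest 1.24). Most of the decreases were moderate: 49 members lay between 0.5 and 0.55, 61 between 0.4 and 0.5, 30 between 0.25 and 0.4, and 10 at or under 0.25.

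All 150 members had their 3 crskip-1 libraries below their 3 wild-type libraries, which held for 41.1% of the 12279 genes. Within single replicates, 132, 110 and 132 members stood at or under 0.55 for replicates 1, 2 and 3, as did 7.61, 6.44 and 9.29% of all genes. In 149 members the crskip-1 libraries were also all below the crpaf1-1 libraries (50.8% of all genes). With edgeR's quasi-likelihood test over 13376 genes, all 150 members were tested and all 150 were called lower in crskip-1 (adjusted p under 0.05, Benjamini-Hochberg), where 25.1% of genes were called lower. With library size alone in place of TMM, 4879 genes were called lower and 1863 higher, against 3359 and 3259 with TMM. Since the rule used this contrast, the members' counts follow from the choice. The median log2 fold change of the members in that fit was -0.99, against 0.00448 over all genes tested.

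**Figure D1:**
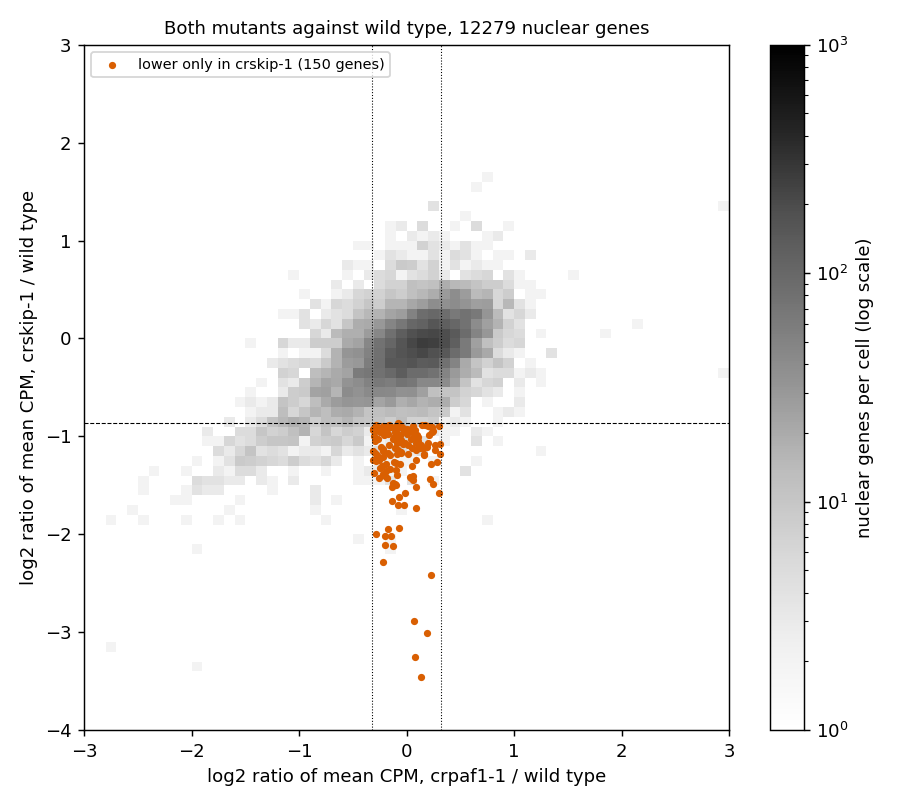
Log2 ratio of mean CPM in crskip-1 over wild type (vertical) against crpaf1-1 over wild type (horizontal), with 12279 nuclear genes as grey cells shaded by number on a log scale and the 150 members as orange points. The dashed line marks 0.55 and the dotted lines 0.8 and 1.25; most members lie close under the dashed line, and 10 lie at a ratio of 0.25 or less.

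The 10 members at or under 0.25 form the far end of the set. Cre10.g426800_4532.v6.1 (chromosome 10, 1273260 to 1278595, plus strand, 6 exon blocks) had the lowest ratio, 0.0912. Exon blocks are exons merged where they overlap. It measured 5.35, 0.928 and 4.20 CPM in the wild-type libraries, 5.98, 2.69 and 2.84 CPM in crpaf1-1 and 0.315, 0.496 and 0.144 CPM in crskip-1. The crskip-1 values rest on 5, 8 and 2 counts, and wild-type replicate 2 lay nearer to them than to the other wild-type libraries. It overlaps 1 gene on the opposite strand and 1 on its own strand. Its counts are uncertain for that reason, since the sources do not say whether counting used the strand.

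Cre02.g104400_4532.v6.1 (chromosome 2, 4230761 to 4239270, plus strand, 9 exon blocks) measured 19.8, 18.9 and 18.3 CPM in wild type. In crpaf1-1 it measured 20.8, 19.9 and 19.6 CPM, and in crskip-1 2.52, 1.74 and 1.73 CPM. The replicates sat close together in each group, and crskip-1 stood at 0.105 of wild type. It overlaps 2 genes on the opposite strand, so its counts carry the same uncertainty.

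Cre14.g628850_4532.v6.1 (chromosome 14, 3205598 to 3213990, minus strand, 6 exon blocks) had mean CPM of 13.9 ± 2.08 for wild type, 14.5 ± 1.04 for crpaf1-1 and 1.87 ± 0.439 for crskip-1 (SD, n = 3 each). The ratio was 0.135, and it too overlaps a gene on the opposite strand. Cre16.g676150_4532.v6.1 (chromosome 16, 6288319 to 6291968, plus strand) measured 2.80, 3.21 and 3.64 CPM for wild type, 3.45, 3.37 and 4.15 CPM for crpaf1-1 and 0.694, 0.434 and 0.0719 CPM for crskip-1. Those last values are 11, 7 and 1 counts, so the size of its drop is loosely set: its log2 fold change in edgeR was -2.81 with all libraries, -2.38 without crskip-1 replicate 3 and -3.55 in replicates 2 and 3 alone. It overlaps 1 gene on each strand.

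Cre06.g310950_4532.v6.1 (chromosome 6, 8762889 to 8768360, minus strand, 11 exon blocks) measured 10.9, 10.7 and 12.1 CPM for wild type, 12.9, 13.1 and 13.3 CPM for crpaf1-1 and 2.08, 2.67 and 1.58 CPM for crskip-1. All 3 crpaf1-1 libraries were above all 3 wild-type libraries, the opposite direction to crskip-1. Cre06.g278209_4532.v6.1 (chromosome 6, 3996267 to 4002138, minus strand, 6 exon blocks) had the highest CPM of the 10, not set per length, at 49.6, 42.3 and 40.1 CPM for wild type, 36.5, 34.1 and 42.8 CPM for crpaf1-1 and 7.63, 10.7 and 8.84 CPM for crskip-1. Its crskip-1 mean stood at 0.206 of wild type, while crpaf1-1 overlapped wild type.

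Cre01.g033300_4532.v6.1 on chromosome 1 (4791586 to 4794912, plus strand, 9 exon blocks) went from 23.7 ± 0.872 to 5.43 ± 0.803 CPM in crskip-1, with 21.6 ± 0.426 CPM in crpaf1-1. It overlaps 1 gene on the opposite strand. The other 3 of the 10 were Cre12.g492600_4532.v6.1 at 0.232 of wild type, Cre02.g142650_4532.v6.1 at 0.247 and Cre04.g219851_4532.v6.1 at 0.247, with wild-type means of 9.88, 15.9 and 5.84 CPM. The second overlaps a gene on its own strand and the last a gene on the opposite strand.

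**Figure D2:**
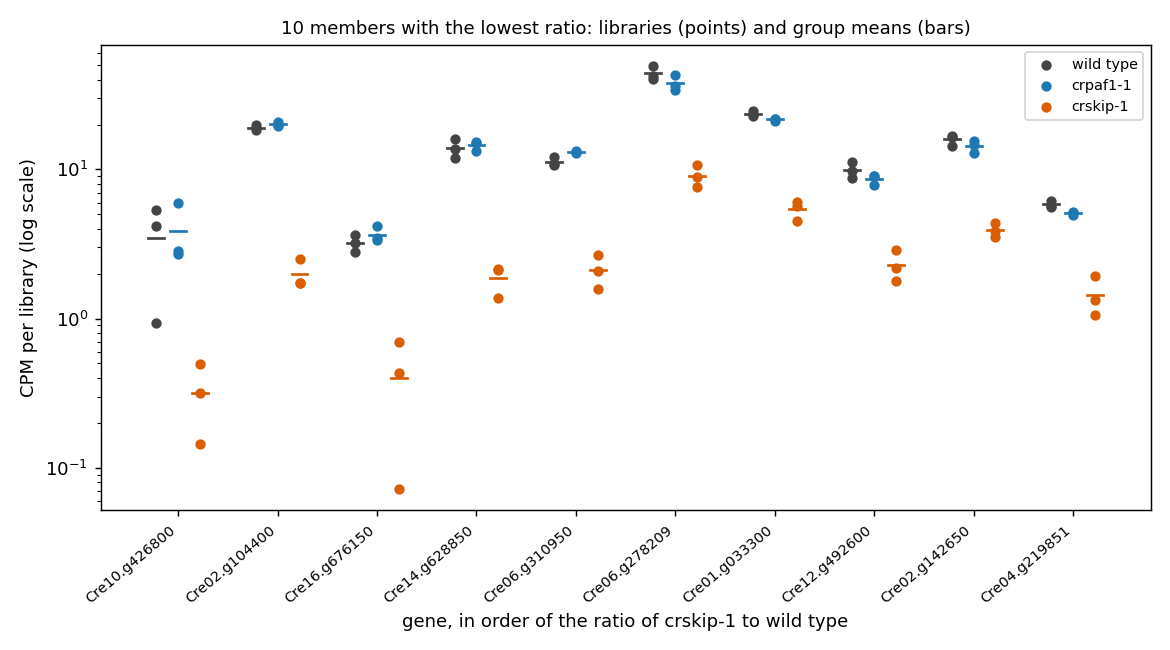
CPM on a log axis in each of the 9 libraries for the 10 members with the lowest ratio of crskip-1 to wild type; points are libraries, short bars are group means, and colours are the groups. The crskip-1 points lie below all others for each gene and most wild-type and crpaf1-1 points sit together; Cre10.g426800_4532.v6.1 has a wild-type library at 0.928 CPM, and Cre16.g676150_4532.v6.1 has crskip-1 libraries from 0.0719 to 0.694 CPM.

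Levels can be set against each other between genes only per length, here as CPM per kb of exon. By that measure Cre04.g223100_4532.v6.1 (chromosome 4, 2652776 to 2657045, minus strand, 11 exon blocks) was the most abundant member, at a mean of 334 CPM per kb in wild type. It measured 1012, 429 and 654 CPM in the wild-type libraries, 857, 633 and 651 CPM in crpaf1-1 and 291, 279 and 215 CPM in crskip-1. Wild type and crpaf1-1 varied widely and overlapped, the crskip-1 libraries lay below both, and the ratio was 0.375.

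The next 5 by level per length were far lower, at 32.8 to 46.6 CPM per kb, and varied little. Cre13.g603550_4532.v6.1 (chromosome 13, 4590554 to 4594953, plus strand, 7 exon blocks) measured 112, 118 and 107 CPM for wild type, 102, 102 and 105 CPM for crpaf1-1 and 37.8, 41.5 and 41.5 CPM for crskip-1. Cre03.g187250_4532.v6.1 (chromosome 3, 5737481 to 5739708, plus strand, 6 exon blocks) went from 39.2 ± 1.69 to 12.1 ± 1.76 CPM in crskip-1 and measured 37.1 ± 1.99 CPM in crpaf1-1; it overlaps a gene on the opposite strand. In both genes the groups' replicates lay close together and crskip-1 stood at 0.359 and 0.308 of wild type. The other 3, Cre08.g364100_4532.v6.1, Cre16.g663450_4532.v6.1 and Cre13.g578750_4532.v6.1, stood at 0.476, 0.505 and 0.549 of wild type, with wild-type means of 71.1, 169 and 71.7 CPM.

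At the limit of the rule the set has no visible edge. The 3 members nearest to it were Cre13.g578750_4532.v6.1, Cre01.g038900_4532.v6.1 and Cre14.g608700_4532.v6.1, at ratios of 0.549, 0.546 and 0.542. The 3 genes that met the other conditions and lay just outside were Cre03.g182800_4532.v6.1 at 0.551, Cre02.g080600_4532.v6.1 at 0.552 and Cre10.g433800_4532.v6.1 at 0.552. A limit of 0.6 would have taken 242 genes and a limit of 0.5 would have taken 101.

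In crpaf1-1 the members were not all level with wild type. The crpaf1-1 mean was below wild type for 95 members and above for 55, with a median ratio of 0.952. Over all 12279 genes the median ratio was 1.06, above wild type on this scale. The libraries of both groups overlapped for 114 members, where 33.1% of all genes overlapped. For 25 members all crpaf1-1 libraries lay below wild type (26.4% of all genes) and for 11 all lay above (40.6%). In the edgeR fit 37 members were called lower in crpaf1-1 and 1 higher, where 29.8% of genes were called lower, 28.6% higher and 58.4% in either direction. The 37 had a median log2 fold change of -0.30. The rule's band on crpaf1-1 fixes these small sizes. The call counts depend on scaling, with 11 lower and 5 higher when library size alone was used. The split over all 13376 genes moved too, from 3987 lower and 3819 higher to 3218 lower and 4882 higher.

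The same measure can be read in libraries that were left out when the rule was applied. To this end the rule was applied to 2 replicates of each group. The ratio of crskip-1 to wild type was then read in the replicate left out. The rule was chosen with earlier results of these data known, and replicates may not be separate cultures. The libraries left out are therefore not independent support. With replicate 1, the lane 3 libraries, left out, 143 genes were chosen at a median ratio of 0.466, and their median in the libraries left out was 0.462, with 141 of 143 below 1. Over all genes in those libraries the median was 0.913, and 65.9% were below 1.

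With replicate 3 left out, 157 genes were chosen and their median in that replicate was 0.461, with 156 below 1, against a median of 0.91 and 65.5% below 1 over all genes. With replicate 2 left out, 175 genes were chosen; their median there was 0.516 against 0.471 in the libraries that chose them, and 171 were below 1, against a median of 0.945 and 60.1% below 1 over all genes. The chosen genes thus stood lower in crskip-1 in each set of libraries left out too, with a somewhat smaller size in replicate 2. As said above, this is not independent support. A ratio of 0.55 or less was reached in the libraries left out by 105 of 143 genes (73.4%), 102 of 175 (58.3%) and 115 of 157 (73.2%) for replicates 1, 2 and 3, where 7.51, 6.49 and 9.33% of all genes did so. All genes are here the 12256, 12303 and 12289 nuclear genes with a mean of 2 CPM or more in the libraries used for choosing. These are single libraries per group, so no test was made.

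For the same chosen genes crpaf1-1 also lay close to wild type, though less tightly, and with the same limit on what this supports. In the libraries left out its median ratio to wild type was 0.958, 0.978 and 0.997 for replicates 1, 2 and 3. It lay between 0.8 and 1.25 for 107 of 143 (74.8%), 129 of 175 (73.7%) and 112 of 157 genes (71.3%), against 54.4, 53.9 and 54.7% of all genes. The other chosen genes left the band when read in those libraries.

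**Figure D3:**
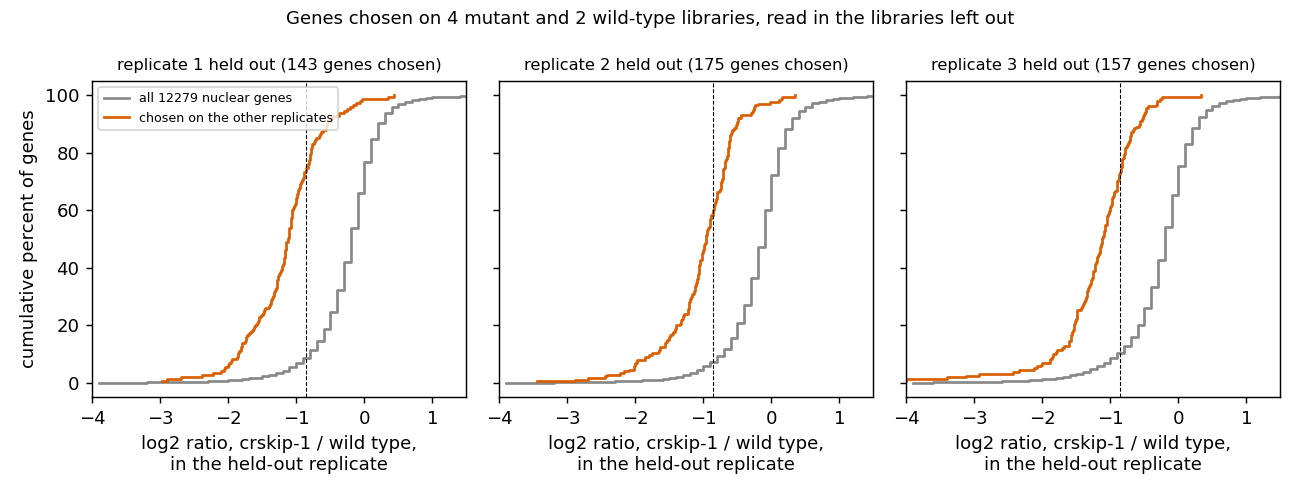
Cumulative percent of genes by log2 ratio of crskip-1 to wild type in the replicate left out, for genes chosen on the other replicates (orange) and all 12279 nuclear genes (grey), with 1 panel per replicate. The dashed line marks a ratio of 0.55, where the orange curves reach 73.4, 58.3 and 73.2% and the grey curves stand far lower. Of the 12279 genes, 7.61, 6.44 and 9.29% lie at or under that ratio. The grey curves are drawn from bins, so they show slightly more there.

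The exon and intron structure of the members was not used to choose them. Members tended to have fewer introns for their length than other nuclear genes. Introns made up a median of 29.65% of a member's span, the distance from its first to its last exon base, against 38.03% over all 12279 genes. There were 1.762 introns per kb of exon in the median member and 2.506 over all genes, and the mean exon block was 478 against 346 bases long. The median exonic length, 3244 against 2982 bases, and the median mean intron, 246.8 against 249 bases, differed far less.

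With the 12279 genes ranked by intron share of span and divided into 5 equal classes, members made up 1.91% of the class with the lowest share (47 genes), then 1.34, 1.14 and 0.977%, and 0.733% (18 genes) of the class with the highest. The share over all genes was 1.22%. Genes found by the mirrored rule, lower only in crpaf1-1 (74 genes), did not show that order: 0.407% in the lowest class and 0.611, 0.611, 0.774 and 0.611% after it, with a median intron share of 40.78%. Genes at or under 0.55 in both mutants (480 genes) resembled the members in intron share, with a median of 30.02%, but had shorter introns (median mean intron 193.5 bases). No test was made on these lists.

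The pattern differed with the scaling used and between levels. With TMM-scaled CPM the shares of the 5 classes were 0.855, 0.896, 0.896, 0.651 and 0.407%, level over the lowest 3 classes and lower after them, and the median intron share of that list was 34.2%. The genes were also split into 3 equal groups by wild-type level, a step chosen after seeing the data. The shares of the lowest and highest intron classes were then 2.83 and 1.52% among genes of low level, and 1.62 and 0.352% among genes of middle level. The classes between them held 1.9, 2.16 and 2.08% at low level, in no order. At middle level they held 1.39, 0.814 and 0.47%, falling in order. Among genes of high level, with 24 members, the lowest and highest classes held 0.645 and 0.595%. These are 4 and 6 members, too few to tell whether there is a slope. The aligner named by the submitters, Bowtie2, does not split reads over introns. How far scaling, level and alignment account for the pattern was not tested.

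By number of exon blocks, 55 members had 2 to 5 (1.77% of such genes), 54 had 6 to 10 (1.18%), 27 had 11 to 20 (0.864%) and 8 had over 20 (0.83%). Single-block genes gave 6 members, 1.21% of such genes, so the set is neither poor nor rich in genes without introns. The median member had 7 exon blocks, against 8 over all genes and 11 in the genes lower only in crpaf1-1.

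**Figure D4:**
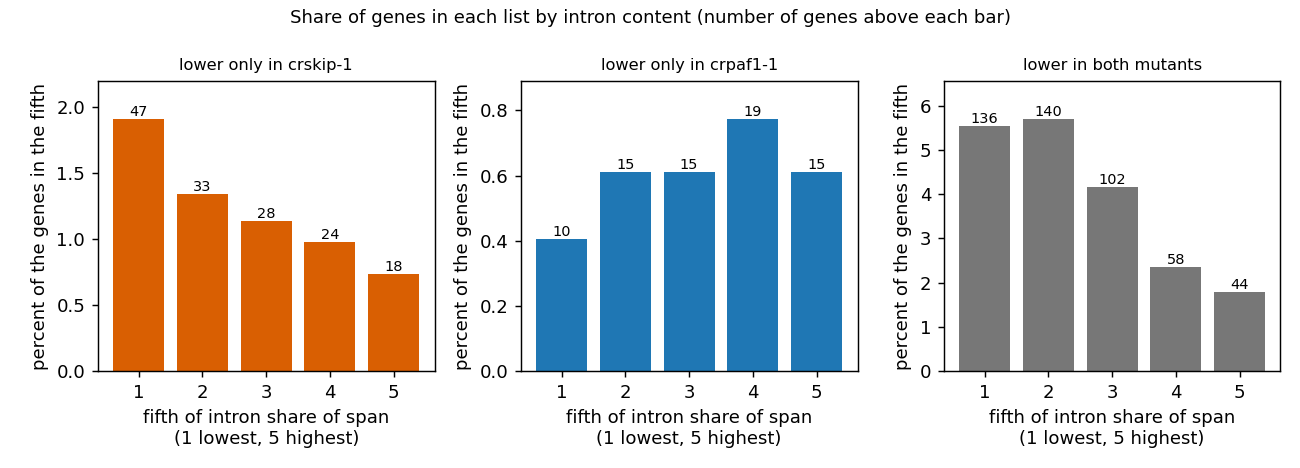
Percent of the nuclear genes in each of 5 equal classes of intron share of span (1 lowest, 5 highest) that belong to each of 3 lists on the CPM scale, with the number of genes above each bar and axes starting at 0. For the members the bars go from 1.91% to 0.733%, for the genes lower only in crpaf1-1 from 0.407% to 0.611%, and for the genes lower in both mutants from 5.54% to 1.79%.

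Members were of lower abundance than the average nuclear gene. Their median wild-type level was 3.569 CPM per kb of exon, against 6.982 over all genes and 3.87 in the genes lower only in crpaf1-1. The share of members went from 1.92% among genes under 5 CPM and 2.42% at 5 to 10 CPM to 0.236% (4 genes) over 100 CPM. Low counts make group means less precise. The median coefficient of variation (SD over mean) of members was 0.0867 for wild type, 0.084 for crpaf1-1 and 0.113 for crskip-1. Over all genes it was 0.0617, 0.0556 and 0.0674. The genes lower only in crpaf1-1 also lay above all genes, at 0.07, 0.127 and 0.0886. So did the genes lower in both mutants, at 0.07, 0.0922 and 0.133. Whether level accounts for these differences was not tested.

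On the chromosomes the members were spread widely, with at least 1 on each of the 17. The counts were highest on chromosome 2 (17 members), and the shares highest on chromosomes 14, 8 and 4, at 2.00, 1.98 and 1.93% of their genes. The share over all genes was 1.22%, and these 3 shares rest on only 9, 9 and 7 members. Members overlapped a gene on the opposite strand in 49 cases (32.7%, against 37.6% of all genes).

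Genes next to a member were low in crskip-1 more often than genes next to any gene. Of 245 adjacent genes with 2 CPM or more, 33 (13.5%) stood at or under 0.55 in crskip-1, against 6.89% over the neighbours of all genes. With neighbours that were themselves members left out it was 23 of 235 (9.79%), against 5.80%. For genes lower only in crpaf1-1, 4 of 128 neighbours (3.12%) were that low in crskip-1, and for genes lower in both mutants 69 of 816 (8.46%). With members left out these were 3 of 127 (2.36%) and 58 of 805 (7.2%). The median log2 ratio of the members' neighbours, -0.167, was still close to the -0.111 of all neighbours, so most neighbours were not low. Adjacent genes were taken in order of start position, so genes that overlap are among them, and use of strand in counting is not stated. These shares were not tested.

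Members lay side by side in 5 pairs, 4 of them on the same strand. Cre06.g310950_4532.v6.1, described above, starts 82 bases from its divergent partner Cre06.g311000_4532.v6.1, which measured 27.7, 29.7 and 28.9 CPM in wild type and 12.8, 14.6 and 15.8 CPM in crskip-1. The latter overlaps 1 gene on its own strand. The partners stood at unequal ratios, 0.188 and 0.5 of wild type.

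On chromosome 16, Cre16.g694500_4532.v6.1 and Cre16.g694450_4532.v6.1, 250 bases apart on the minus strand, went to 0.480 and 0.464, with wild-type means of 11.3 ± 0.587 and 55.2 ± 2.58 CPM. Cre08.g381150_4532.v6.1 and Cre08.g381200_4532.v6.1 on chromosome 8, 383 bases apart with 2 exon blocks each, went to 0.514 and 0.418. In the other pairs the annotated genes touch or nearly touch. Cre02.g074400_4532.v6.1 and Cre02.g074437_4532.v6.1 have 0 bases between them and went to 0.537 and 0.505, and Cre01.g800087_4532.v6.1 and Cre01.g030650_4532.v6.1 have 2 bases between them and went to 0.451 and 0.471; both of the latter pair also overlap a gene on the opposite strand. Reads that cross such a border could count toward either gene, so these pairs may not be separate observations.

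Replicates of the same group bring out a small subset. The rule used group means, so the deviations of libraries from them were not chosen. In most members these deviations were small. The median correlation between members was 0.075 over the 9 libraries, against 0.0348 between all genes, all sharing library and depth. Such a median does not show how single pairs spread around it.

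A coefficient of variation over 0.4 in wild type was found for 3 of the 150 members. That is a larger share than over all genes, where it was found for 33 of 12279 (0.269%). The 3 members were Cre10.g426800_4532.v6.1, Cre04.g223100_4532.v6.1 and Cre02.g097800_4532.v6.1. The last (chromosome 2, 3311436 to 3326751, plus strand, 15 exon blocks) measured 56.9, 22.3 and 48.9 CPM for wild type, 60.7, 35.1 and 37.3 CPM for crpaf1-1 and 16.2, 15.7 and 16.3 CPM for crskip-1. All 3 genes were lowest in wild-type replicate 2 among the wild-type libraries. Among the crpaf1-1 libraries they were highest in replicate 1. Their deviations correlated at 0.868 to 0.917 over the 9 libraries. The 3 genes were picked by the size of their wild-type deviations, so that correlation is in part set by the choice. Wild-type replicate 2 was the lowest wild-type library for 71 members and for 44.6% of all genes.

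Because of that spread, their size of change depends on the libraries used. The edgeR log2 fold change of Cre04.g223100_4532.v6.1 in crskip-1 was -1.28 with all libraries and -0.94 without wild-type replicate 1. For Cre02.g097800_4532.v6.1 it was -1.29, and -1.58 without wild-type replicate 2. The call was kept for both in these fits. Another 6 members followed the mean deviation of these 3 genes with a correlation over 0.8 (4.08% of the other members), as did 5.34% of all genes, so the pattern is not more frequent in the set than elsewhere.

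**Figure D5:**
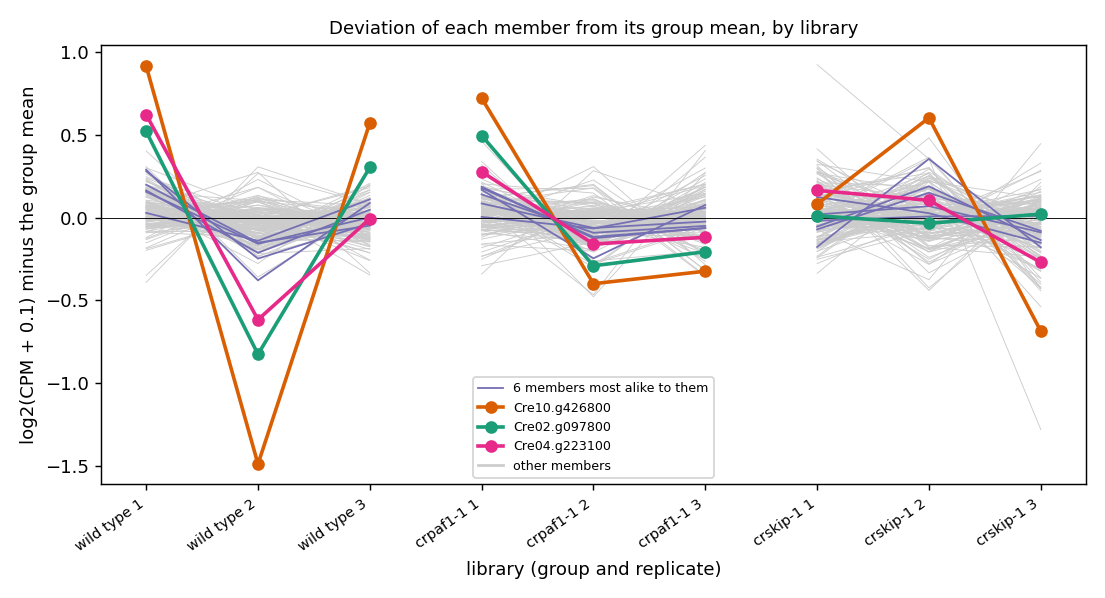
Deviation of each member's log2(CPM + 0.1) from its group mean in the 9 libraries, with lines joining the replicates of a group for legibility only, since replicates have no order. The 3 members that varied most in wild type (thick lines) are lowest in wild-type replicate 2 and, among the crpaf1-1 libraries, highest in replicate 1, while most other members (grey) stay near 0.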

How the data were processed

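RNA was measured in 9 libraries. Per the labels' protocols, oligo(dT) beads selected the RNA, while the labels' molecule field names genomic DNA; the values are treated as expression. The authors deposited raw counts per gene, 1 table per library. The tools named by the submitters' processing notes are featureCounts and Bowtie2, without versions. Per the file headers the alignments were uniquely mapped with duplicates removed. Use of strand is not stated. Removal of duplicates lowers high counts most, unique mapping drops reads shared by copies, and Bowtie2 does not split reads over introns. Coordinates are as deposited, with the gene set named only by the suffix of the IDs.

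CPM used each file's total over all listed genes. Group means, ratios and structure were computed with Python 3.11.15. The edgeR 4.0.16 quasi-likelihood fit (R 4.3.3; TMM, filterByExpr, 3 groups without covariates, Benjamini-Hochberg over all genes) was tested on simulated data. Alternatives were DESeq2 1.42.0, library size alone, no filter, a replicate block, each mutant with wild type alone, and leaving out libraries. Deviations used a pseudocount of 0.1 CPM. Members and lists were chosen with earlier results of these data known. Named genes are the 10 lowest ratios, the 6 highest levels per length, the 3 nearest to the limit on each side, adjacent pairs and the 3 most variable in wild type; protein families and products were not analysed here. Deposited columns of other samples numbered 0. Intervals on counts were not used.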

Additional observations from a re-analysis of the deposited data

How the results depend on the processing

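The rule found 150 members as stated, 91 with TMM-scaled CPM (87 of them shared) and 242 with a limit of 0.6. Leaving out 1 library at a time gave 136 to 175, and 90 members were found in all 9 of these lists. The median intron share was 34.2% with TMM-scaled CPM, 33.2% with a limit of 0.5, 28.2% with a limit of 0.6, 31.9% with a mean of 5 CPM or more, 31.0% with ratios taken within replicate numbers, and 28.7 to 32.1% without 1 library, under the 38.03% of all genes in each. The ratio in libraries left out was 0.516 for replicate 2 beside a median of 0.462. Members called in crpaf1-1 numbered 38, but 22 with DESeq2, 16 with library size alone, 19 in replicates 2 and 3 only (chosen after seeing the data) and 26 to 41 without 1 library. Without 1 library, 150 members were called lower in crskip-1 each time, and 149 were in replicates 2 and 3 only. Genes called without 1 library ranged from 5849 to 6548 in crskip-1 and from 7068 to 7924 in crpaf1-1. For the 28 named members all 420 alternative values in crskip-1 kept their direction and their call. Members were chosen by the ratio of crskip-1 to wild type, so these member counts follow in large part from the choice.

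Samples share replicate numbers. Between libraries of the same number, the correlation of deviations over genes was taken for replicates 1, 2 and 3. It was 0.335, 0.0527 and -0.00466 between wild type and crpaf1-1, and 0.167, -0.042 and 0.155 between wild type and crskip-1. Between the mutants it was 0.244, 0.0854 and 0.122. Libraries of unlike number were not compared, so whether the numbers pair the samples was not tested. Replicate 1, from lane 3, was above 0.1 in all 3 comparisons. With a replicate block, 150 members were called lower in crskip-1 and 51 were called in crpaf1-1 (49 lower, 2 higher), and genes called numbered 7004 in crskip-1 and 8176 in crpaf1-1; ratios taken within numbers gave 150 members, 148 of them shared. Counts limit the members under 5 CPM most, where crskip-1 libraries hold few counts.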

Other observations

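Outside the set, the 5 nuclear genes whose log2 CPM over the 9 libraries was most like the median profile of the members correlated with it at 0.991 to 0.993. Their ratios of crskip-1 to wild type were 0.557 to 0.703 and those of crpaf1-1 were 0.951 to 1.05, so they lie beyond the limit of the rule rather than apart from it. The profile is set by the choice of members, and the correlation is a description over 9 libraries.

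Of the 150 members, 8 (5.33%) carry IDs without a locus tag in the reference table of assembly Chlamydomonas_reinhardtii_v5.5, a share close to the 5.17% of all 12279 genes.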
